A study of Homo sapiens with 3 samples.

Results

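Cholesterol and fatty acid synthesis genes were followed through a co-culture of the human colorectal carcinoma lines Caco-2 and HT29, both widely used as models of the intestinal epithelium. The set held 30 of the 33538 genes listed in the count matrices, chosen by symbol: 7 genes of the mevalonate arm, 11 genes that take squalene to cholesterol, 5 genes of regulation and sterol transport and 7 genes of fatty acid synthesis and desaturation. All 30 were found once in each library. The lines had been seeded together in the apical chamber of Transwell inserts at 9 parts of Caco-2 to 1 part of HT29 and harvested on day 23. The control group was 2 inserts without lipopolysaccharide (LPS), named control 1 and control 2 here, and the LPS group was 1 insert that received LPS of Escherichia coli O111:B4 at 1 ng/ml in the apical chamber on day 22 for 24 h. The inserts were separate but came from the same passage of each line, so the spread between libraries is that between inserts and library preparations. Neither line was sampled on its own.

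Each library was a 3′ single-cell library in which every captured transcript is counted once through its unique molecular identifier (UMI). After filtering, 4633, 4989 and 4850 cells remained in control 1, control 2 and LPS, with medians of 5452, 4101 and 3572.5 UMIs a cell, so the LPS library was the shallowest. Its median share of mitochondrial UMIs was also the highest, at 4.41% against 3.62% and 4.05%. Cell barcodes were shared between libraries 4 to 6 times a pair, and none of those cells had identical counts. Cells were assigned to a line by cluster from lists of line genes given by the study, with all 30 genes left out of both the clustering and the assignment. Caco-2-line cells numbered 3945, 3946 and 3955 and HT29-line cells 675, 1015 and 865 in control 1, control 2 and LPS. Called one by one, 98.9% of cells had the line of their cluster. This is not a separate check, because the clusters received their line from the same score and cut. In the HT29-line clusters, undifferentiated and goblet-like, 95.0% and 88.2% of cells lay on the HT29 side of that score. The 5 enterocyte genes APOA1, APOA4, APOC3, FABP2 and RBP2 were taken to be absent from HT29 cells, which was not checked in HT29 cells grown alone. In HT29-line cells they stood at 8.48%, 8.15% and 9.13% of their summed Caco-2-line level in control 1, control 2 and LPS. That percentage is the background against which low levels in HT29-line cells were read.

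Cells make cholesterol from acetyl-CoA through mevalonate, the isoprenoid farnesyl diphosphate and squalene, and they make fatty acids from the same precursor. Both routes are controlled by the membrane-bound transcription factors SREBP1 and SREBP2, encoded by SREBF1 and SREBF2. SCAP escorts them to the Golgi for cleavage when sterols are scarce, and INSIG1 holds SCAP back when sterols are plentiful. In the intestine enterocytes also take up dietary sterols and fatty acids, esterify them and export them in lipoproteins.

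The 2 lines were compared first. Levels are given as CPM, the UMIs of a gene scaled to 1000000 UMIs of a line in a library. They are not divided by gene length, because the assay counts 1 end of each molecule. Whether molecules of different genes were counted equally well was not measured, so comparisons between genes are approximate. Of the 30 genes, 18 were higher in HT29-line cells and 5 were lower at an adjusted p under 0.05 (edgeR quasi-likelihood test on summed counts with the library as a block, Benjamini-Hochberg over 14029 genes). Over all genes tested, 35.0% were higher and 37.6% lower, and many of those genes had defined the clusters, so the share of the 30 that was higher is to be read against a background that is itself large. On the log2 scale the median difference came to 0.38 for the 30 genes and to -0.05 for all genes. The study's line lists, made from bulk RNA of each line, lean the other way for this set. They hold 10 of the 30 genes on the Caco-2 side and 2 on the HT29 side. The list genes used for the assignment numbered 744 for Caco-2 and 393 for HT29. Why the lists and the counts here differ was not tested. At least 2-fold higher in every library were 5 of the 30 (14.3% of all genes), namely SQLE, SREBF1, ACACA, FASN and SCD, and at least 2-fold lower in every library were FADS1 and FADS2 (15.3% of all genes).

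**Figure D1:**
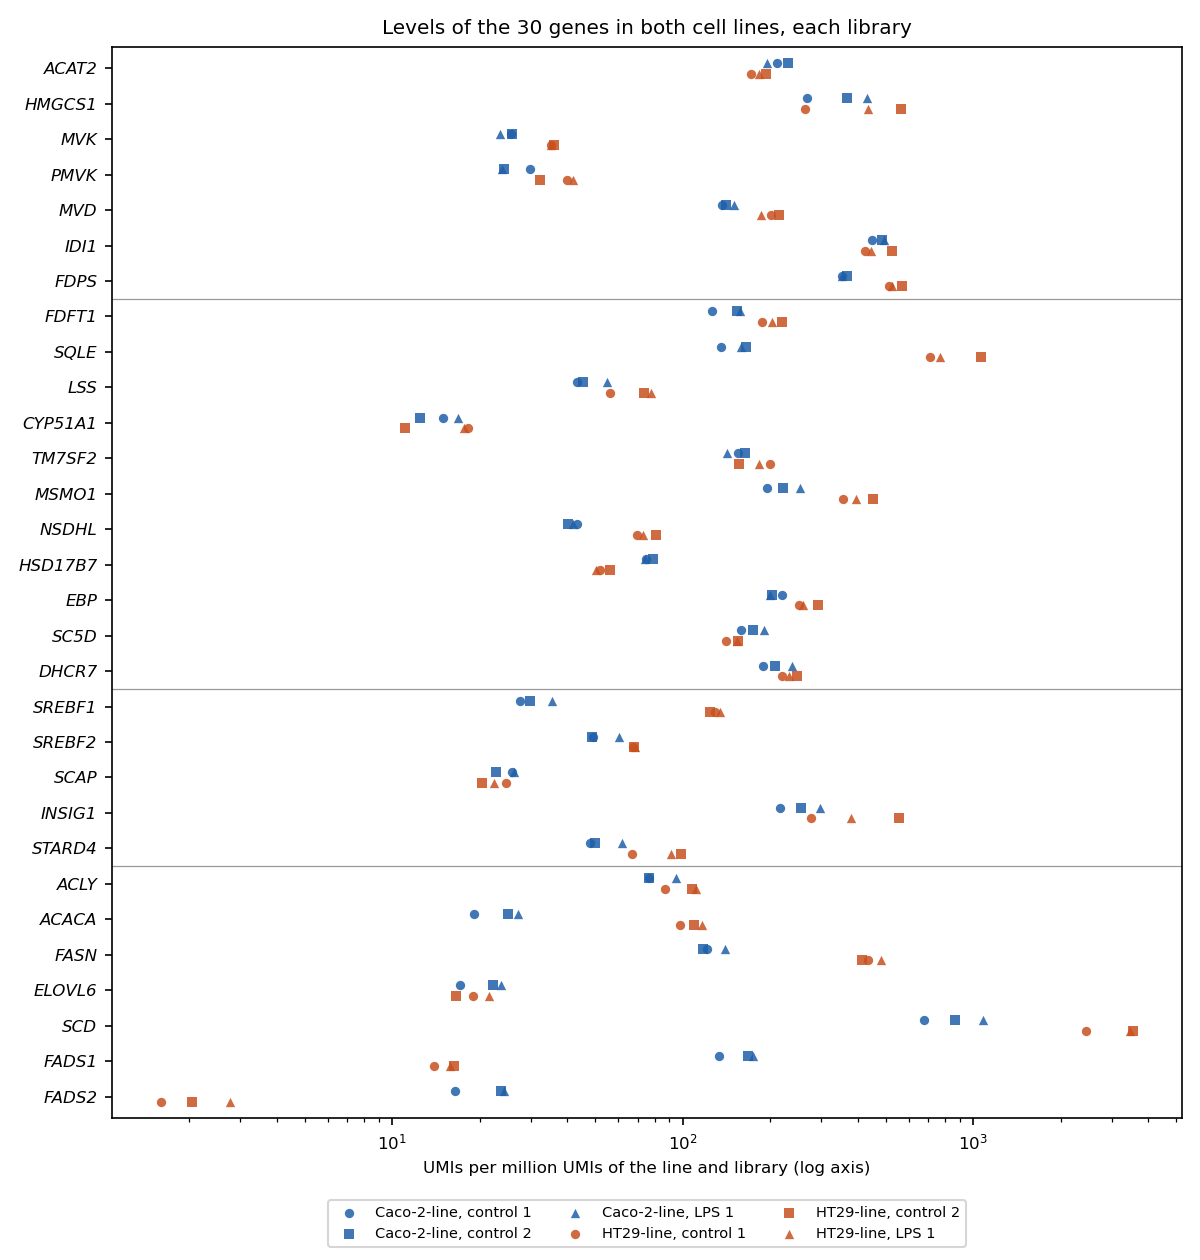
Level of each of the 30 genes in CPM on a log axis, by line (blue, Caco-2-line; orange, HT29-line) and library (circle, control 1; square, control 2; triangle, LPS), with grey lines between the 4 gene groups. SQLE, SREBF1, ACACA, FASN and SCD lie well to the right in HT29-line cells, and FADS1 and FADS2 lie about 10-fold to the left. The other genes differ less between the lines. Some of them have a gap, such as FDPS, MSMO1, NSDHL and HSD17B7, and others overlap, such as HMGCS1, IDI1 and ELOVL6.

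The fatty acid genes split in opposite directions. SCD, the Δ9 desaturase that makes monounsaturated fatty acids, was the most abundant of the 30 genes in both lines. Its level was 676, 867 and 1078 CPM in Caco-2-line cells of control 1, control 2 and LPS, and 2434, 3555 and 3455 CPM in HT29-line cells. The groups did not overlap, and SCD was 3.50-fold higher in HT29-line cells (log2 1.81 ± 0.06 SE, adjusted p = 5.37e-17). The SE of each fitted log2 difference was derived from the F statistic of the test. It restates the test and is not a separate measure of spread. FASN, the fatty acid synthase, stood at 121, 118 and 139 CPM in Caco-2-line cells and at 435, 415 and 482 CPM in HT29-line cells. That was a 3.41-fold difference (log2 1.77 ± 0.07, adjusted p = 1.24e-15), with a smaller spread between libraries than SCD. ACACA, the acetyl-CoA carboxylase that commits carbon to fatty acids, was at 19.2, 25.1 and 27.2 CPM against 97.5, 109 and 116 CPM, or 4.41-fold higher in HT29-line cells (log2 2.14 ± 0.09, adjusted p = 3.00e-15). ACLY, which supplies cytosolic acetyl-CoA from citrate, was only 1.19-fold higher (adjusted p = 0.0147), and its 86.6 CPM in HT29-line cells of control 1 lay below the 94.7 CPM of Caco-2-line cells of the LPS library. ELOVL6, the elongase of saturated fatty acids, did not pass the test, with 17.1, 22.3 and 23.6 CPM in Caco-2-line and 18.9, 16.5 and 21.6 CPM in HT29-line cells.

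FADS1 and FADS2, the Δ5 and Δ6 desaturases of polyunsaturated fatty acid synthesis, went the other way. Both lie on chromosome 11 (GRCh38, GENCODE 44), FADS1 at 61799627 to 61829318 on the minus strand and FADS2 at 61792980 to 61867354 on the plus strand, so that the annotated FADS2 span covers that of FADS1 on the other strand. FADS1 was at 133, 168 and 174 CPM in Caco-2-line cells and at 13.9, 16.3 and 15.8 CPM in HT29-line cells. At least 1 FADS1 UMI was found in 43.1%, 44.6% and 41.8% of Caco-2-line cells and in 6.22% (95% exact binomial interval 4.52% to 8.32%), 5.91% (4.54% to 7.54%) and 5.32% (3.92% to 7.03%) of HT29-line cells, at median depths of 5457, 4212 and 3563 UMIs in Caco-2-line and 5457, 3781 and 3629 UMIs in HT29-line cells. After each cell was thinned to 1500 UMIs the shares were 15.5%, 19.5% and 19.9% against 1.04%, 1.58% and 1.73%. FADS2 was less abundant, at 16.4, 23.8 and 24.3 CPM against 1.59, 2.04 and 2.77 CPM. The fitted differences were log2 -3.41 ± 0.11 for FADS1 (adjusted p = 8.78e-18) and -3.38 ± 0.21 for FADS2 (adjusted p = 1.35e-12). The intervals cover counting error only.

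What remained of both desaturases in HT29-line cells was close to the background. FADS1 in HT29-line cells was 10.5%, 9.71% and 9.06% of its Caco-2-line level, and FADS2 was 9.73%, 8.57% and 11.4%, against 8.15% to 9.13% for the sum of the 5 enterocyte genes. Singly those genes ran from 4.26% (APOA4, control 1) to 20.8% (FABP2, LPS, at only 1.39 CPM in HT29-line cells). In control 2 the highest of them was APOA1 at 9.38%, below the 9.71% of FADS1. With the line called cell by cell, the FADS1 level fell to 6.91%, 8.63% and 5.33% of that in Caco-2-line cells, and that of APOA1 to 5.17%, 5.32% and 7.24%. By that call FADS1 was above each of the 5 enterocyte genes in control 2 (4.98% to 6.24%) and below each in LPS (5.78% to 8.91%). Across the libraries, expression of FADS1 and FADS2 in HT29-line cells could therefore not be told apart from this background, which is included in the fitted differences. ELOVL5, the elongase that acts between these desaturases and a gene of a wider list of 46 lipid genes, had the same pattern. Its level was 56.3, 63.0 and 71.7 CPM in Caco-2-line and 5.47, 4.30 and 7.48 CPM in HT29-line cells, or 9.72%, 6.84% and 10.4% of the Caco-2-line level (log2 -3.53 ± 0.15, adjusted p = 1.25e-15).

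**Figure D2:**
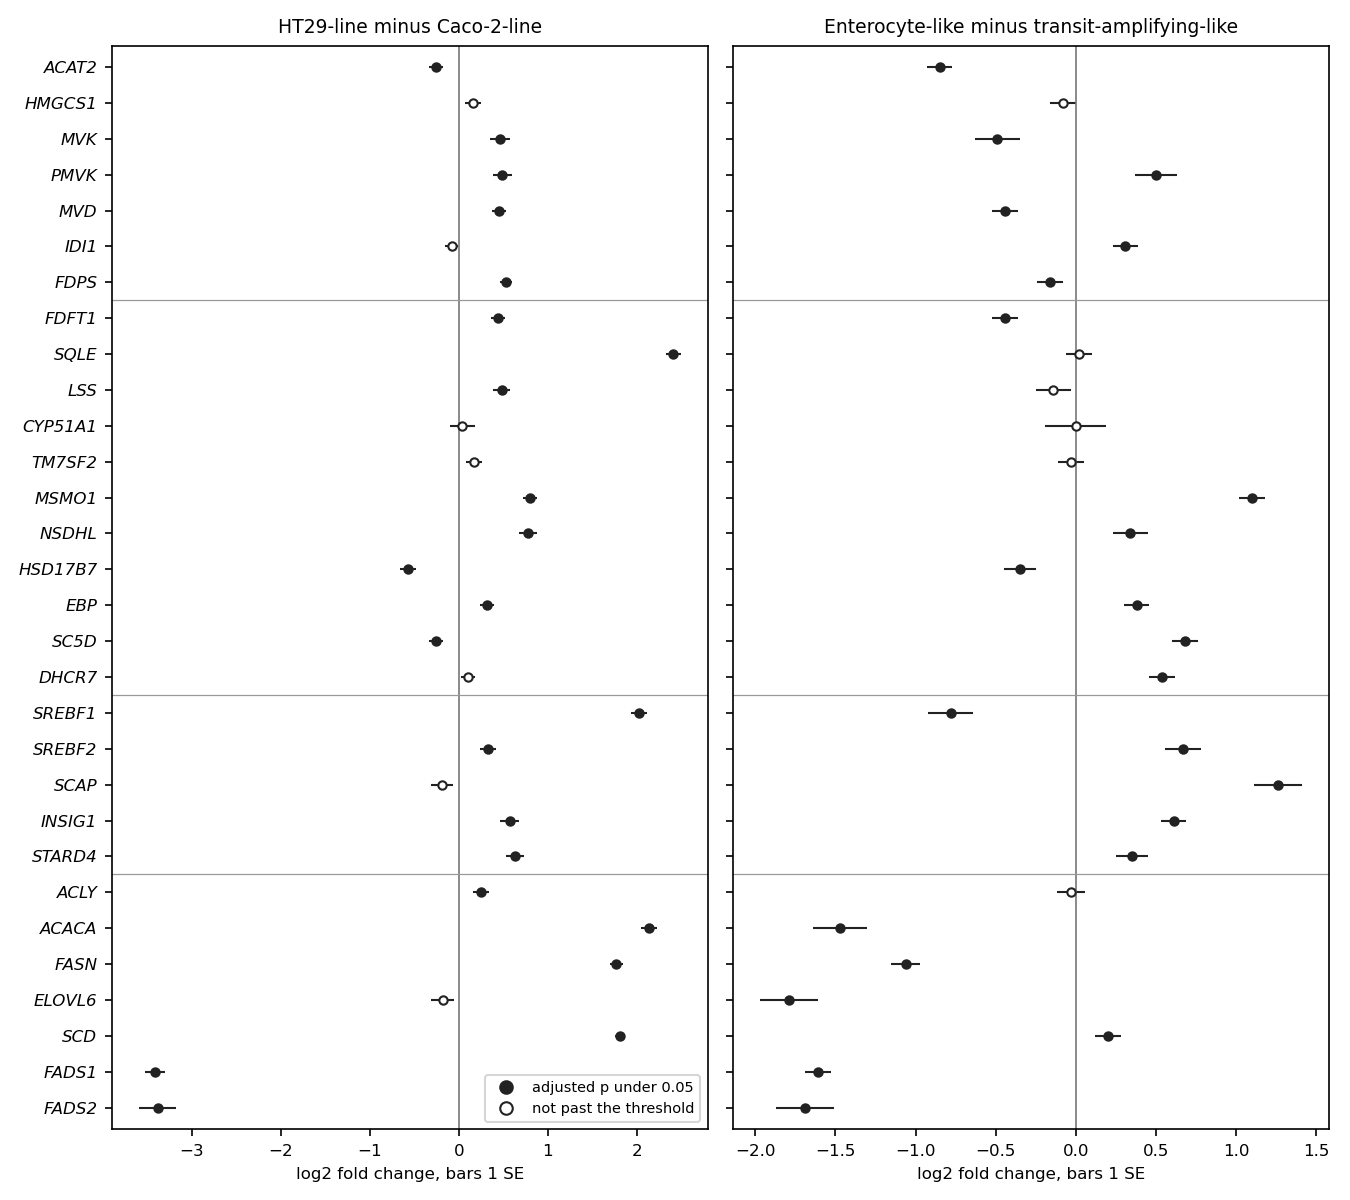
Fitted log2 fold change of each gene (points) with 1 SE (bars), HT29-line minus Caco-2-line on the left and enterocyte-like minus transit-amplifying-like cells on the right, each from 3 libraries. The SE was derived from the F statistic of the test. Filled points passed an adjusted p of 0.05, and the panels have different axes. On the left SQLE, ACACA, SREBF1, SCD and FASN reach 1.77 to 2.41 while FADS1 and FADS2 lie below -3, and on the right ELOVL6, FADS2, FADS1 and ACACA fall furthest.

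In the squalene-to-cholesterol arm, 6 of 11 genes were higher in HT29-line cells, 2 were lower and 3 did not pass. Over all genes tested, 35.0% were higher and 37.6% lower. SQLE (squalene epoxidase), the first oxygen-dependent step of the pathway and one of its slow steps, stood apart from its neighbours. It was at 136, 165 and 158 CPM in Caco-2-line cells and at 711, 1060 and 770 CPM in HT29-line cells, a 5.31-fold difference (log2 2.41 ± 0.08, adjusted p = 1.65e-17). At a common depth of 1500 UMIs, 17.9%, 21.2% and 20.3% of Caco-2-line cells and 57.8%, 66.9% and 59.5% of HT29-line cells had at least 1 SQLE UMI. The enzymes next to it moved far less. FDFT1, which makes squalene, was higher by a log2 of 0.44 (adjusted p = 3.47e-05) and LSS, which cyclises its epoxide, by a log2 of 0.48 (adjusted p = 1.05e-04). MSMO1 and NSDHL, which remove the methyl groups at carbon 4 of the sterol ring, were 1.74-fold and 1.72-fold higher (adjusted p = 5.04e-09 and 1.66e-07), and EBP, the sterol isomerase, was 1.25-fold higher (adjusted p = 0.00121). HSD17B7, which works in the same demethylation complex as NSDHL, was lower in HT29-line cells, at 52.0, 56.4 and 50.4 CPM against 74.8, 79.1 and 74.3 CPM (log2 -0.57 ± 0.09, adjusted p = 7.80e-06). SC5D was also lower (log2 -0.26 ± 0.08, adjusted p = 0.00519). CYP51A1, TM7SF2 and DHCR7 had means of 15.7 ± 3.98, 179 ± 22.1 and 233 ± 13.2 CPM in HT29-line cells and 14.7 ± 2.22, 153.5 ± 10.7 and 211.5 ± 24.9 CPM in Caco-2-line cells and did not pass.

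The mevalonate arm differed less. MVK, PMVK and MVD, the 3 enzymes that turn mevalonate into isopentenyl diphosphate, were 1.37-fold, 1.41-fold and 1.37-fold higher in HT29-line cells (adjusted p = 6.01e-04, 4.34e-04 and 3.16e-05). FDPS, which builds farnesyl diphosphate, was at 353, 367 and 354 CPM in Caco-2-line and 511, 569 and 524 CPM in HT29-line cells (1.45-fold, adjusted p = 3.26e-07), with no overlap. ACAT2, the acetoacetyl-CoA thiolase at the start of the arm, was lower (log2 -0.26 ± 0.08, adjusted p = 0.00539). HMGCS1 and IDI1 did not pass. Summed over the 7 genes the arm came to 1593 ± 107 CPM in Caco-2-line and 1877 ± 246 CPM in HT29-line cells, whereas the 7 fatty acid genes came to 1307 ± 251 and 3838 ± 650 CPM (SD, n = 3). SCD alone made up most of the latter sum.

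Among the regulators, SREBF1 was the only one with a difference over 2-fold. It stood at 27.6, 29.9 and 35.5 CPM in Caco-2-line cells and at 129, 124 and 134 CPM in HT29-line cells (4.06-fold, log2 2.02 ± 0.09, adjusted p = 5.03e-15). SREBF2 was 1.26-fold higher (adjusted p = 0.00322), with 67.5, 67.7 and 68.7 CPM in HT29-line cells, one of the tightest values of the set. INSIG1 was 1.49-fold higher (adjusted p = 4.74e-05), and STARD4, a carrier of cholesterol between membranes, 1.55-fold higher (adjusted p = 6.72e-06). SCAP did not pass, with 24.9 ± 1.90 CPM in Caco-2-line and 22.5 ± 2.11 CPM in HT29-line cells.

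Promoters were searched because SREBPs are known to act on many genes of the set. RefSeq promoter windows, from 250 bases before to 50 bases after a start site on GRCh38.p14, were at hand for 26 of the 30 genes. None was at hand for ACAT2, FDFT1, SQLE and FASN. The classical sterol regulatory element TCACCCCAC was found on either strand in 1 of the 26, SREBF2, against 0.535% of the 27305 genes with a window. With any base allowed at position 5 it was again found in SREBF2 only, against 1.39%. The CCAAT box, bound by the SREBP partner NF-Y, was found in 20 of the 26, against 39.7% of those genes, and the GC box GGGCGG, bound by SP1, in 25 of the 26 against 48.3%. The E-box CACGTG was found in LSS, SC5D, SCAP and INSIG1, against 8.78% of genes. These are matches of letters in a short window, and whether any was bound was not measured. The shares beside them cover all genes with a window, expressed here or not, so they are not matched to the set. FADS1, SREBF1, PMVK, CYP51A1, SCAP and ELOVL6 were the 6 genes without a CCAAT match. The windows of a regulator with the sterol element, of the SCAP anchor and of the most abundant enzyme are given here, 5′ to 3′ on the strand of the gene, with the sterol element, CCAAT (or its reverse complement) and CACGTG in capitals. The window of SREBF2 is chr22:41832855-41833154 on the plus strand, that of INSIG1 is chr7:155297628-155297927 on the plus strand and that of SCD is chr10:100346983-100347282 on the plus strand.
SREBF2: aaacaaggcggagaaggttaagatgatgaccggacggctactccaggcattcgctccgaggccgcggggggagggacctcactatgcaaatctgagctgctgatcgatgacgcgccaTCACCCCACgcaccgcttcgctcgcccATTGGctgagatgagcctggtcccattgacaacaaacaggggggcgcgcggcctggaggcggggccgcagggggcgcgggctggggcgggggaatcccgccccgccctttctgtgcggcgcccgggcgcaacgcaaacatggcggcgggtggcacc
INSIG1: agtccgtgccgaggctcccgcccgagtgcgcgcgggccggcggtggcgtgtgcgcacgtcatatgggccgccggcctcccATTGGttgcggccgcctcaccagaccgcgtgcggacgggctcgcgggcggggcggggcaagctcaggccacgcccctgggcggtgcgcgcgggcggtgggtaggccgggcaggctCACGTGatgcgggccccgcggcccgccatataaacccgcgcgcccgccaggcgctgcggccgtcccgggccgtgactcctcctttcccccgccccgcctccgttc
SCD: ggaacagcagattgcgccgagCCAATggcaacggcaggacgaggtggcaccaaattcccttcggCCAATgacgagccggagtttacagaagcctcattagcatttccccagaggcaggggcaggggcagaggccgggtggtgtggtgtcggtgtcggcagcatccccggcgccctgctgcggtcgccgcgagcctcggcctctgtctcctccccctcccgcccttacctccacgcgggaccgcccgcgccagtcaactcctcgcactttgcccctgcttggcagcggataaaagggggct
In the SREBF2 window the sterol element is followed by 1 CCAAT box in reverse, the INSIG1 window has 1 CCAAT box in reverse and 1 E-box, and the SCD window has 2 CCAAT boxes.

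The 2 control inserts differed from each other in HT29-line cells for a few of these genes, and this spread bears on every comparison that rests on them. HMGCS1, the HMG-CoA synthase, was at 263 CPM in HT29-line cells of control 1 and 563 CPM in those of control 2, and INSIG1 was at 277 and 555 CPM. SQLE, STARD4 and SCD were 1.49-fold, 1.47-fold and 1.46-fold higher in control 2. In all, 5 of the 30 genes were at least 1.4-fold higher in control 2 (11.8% of genes tested in this line) and 1, CYP51A1, was at least 1.4-fold lower (10.9%). Within the undifferentiated HT29 cluster alone HMGCS1 was at 253 and 543 CPM and INSIG1 at 283 and 564 CPM. That cluster held 608 of the 675 HT29-line cells of control 1 and 903 of the 1015 of control 2. Its values are therefore not a separate check. In Caco-2-line cells the control ratio of HMGCS1 was 1.38 and that of INSIG1 1.18, and only FADS2 reached 1.4-fold (11.4% of genes higher, 4.70% lower by that much). HT29-line cells made up 14.6% of control 1 and 20.3% of control 2, and their median UMI count was 5457 and 3781. The part of depth, of the share of HT29-line cells and of handling in this difference was not tested.

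Within the lines, the genes were followed over the 10 clusters of at least 250 cells. In the HT29 line, the goblet-like cluster (262 cells, led by FCGBP, SST and MUC2 and also holding the hormone gene GCG) was set beside the undifferentiated HT29 cluster (2293 cells). SCD was at 1185, 2023 and 1602 CPM in the goblet-like cluster and 2551, 3726 and 3611 CPM in the undifferentiated cluster of control 1, control 2 and LPS. SREBF1 was at 77.2, 67.8 and 64.1 CPM against 134, 131 and 140 CPM. FASN was likewise lower in each library, at 258, 328 and 324 CPM against 451, 425 and 495 CPM. ACLY went the other way, at 133, 192 and 167 CPM against 82.2, 98.2 and 106 CPM. SQLE was lower in the goblet-like cluster of each library, at 583, 1008 and 705 CPM against 723, 1066 and 776 CPM. ACACA had no one direction, at 95.8, 120 and 81.9 CPM against 97.7, 108 and 119 CPM. These values were not tested. In the goblet-like cluster 88.2% of cells lay on the HT29 side of the line score, against 95.0% in the undifferentiated cluster. The part of this in differences as small as that of SQLE was not tested either.

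Of the 8 clusters of the Caco-2 line of that size, the one led by ITGA5, SLC2A3 and SORL1 (639 cells, not named as a cell type) had the highest mean level of 11 of the 30 genes. It also had the highest mean level of 46.0% of the 15537 genes tested in this line, so the count of 11 is not more than the background. SREBF2 was at 135, 114 and 151 CPM there, against a mean of 41.4 to 66.6 CPM in the other Caco-2-line clusters of that size. SCAP was at 82.8, 70.1 and 72.1 CPM, against 16.2 to 32.7 CPM. HMGCS1, INSIG1 and SCD averaged 534 ± 148, 464 ± 103 and 1602 ± 268 CPM (SD, n = 3). ACAT2 and FDPS, in contrast, were lowest there (10.5% of all genes), ACAT2 at 87.9, 93.9 and 89.9 CPM and FDPS at a mean of 322 CPM. The cluster had a median of 3220 UMIs a cell, the lowest of these 8. Over the 24 combinations of cluster and library, SREBF2 and SCAP had a Pearson r of 0.90 on log2 values and ACAT2 and SCAP one of -0.89, as a description. These were the highest and the lowest r among all pairs of the 30 genes, picked by rank. The ITGA5 cluster, where the 3 genes were at their extremes, is among the 24, and its part in both values was not tested.

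**Figure D3:**
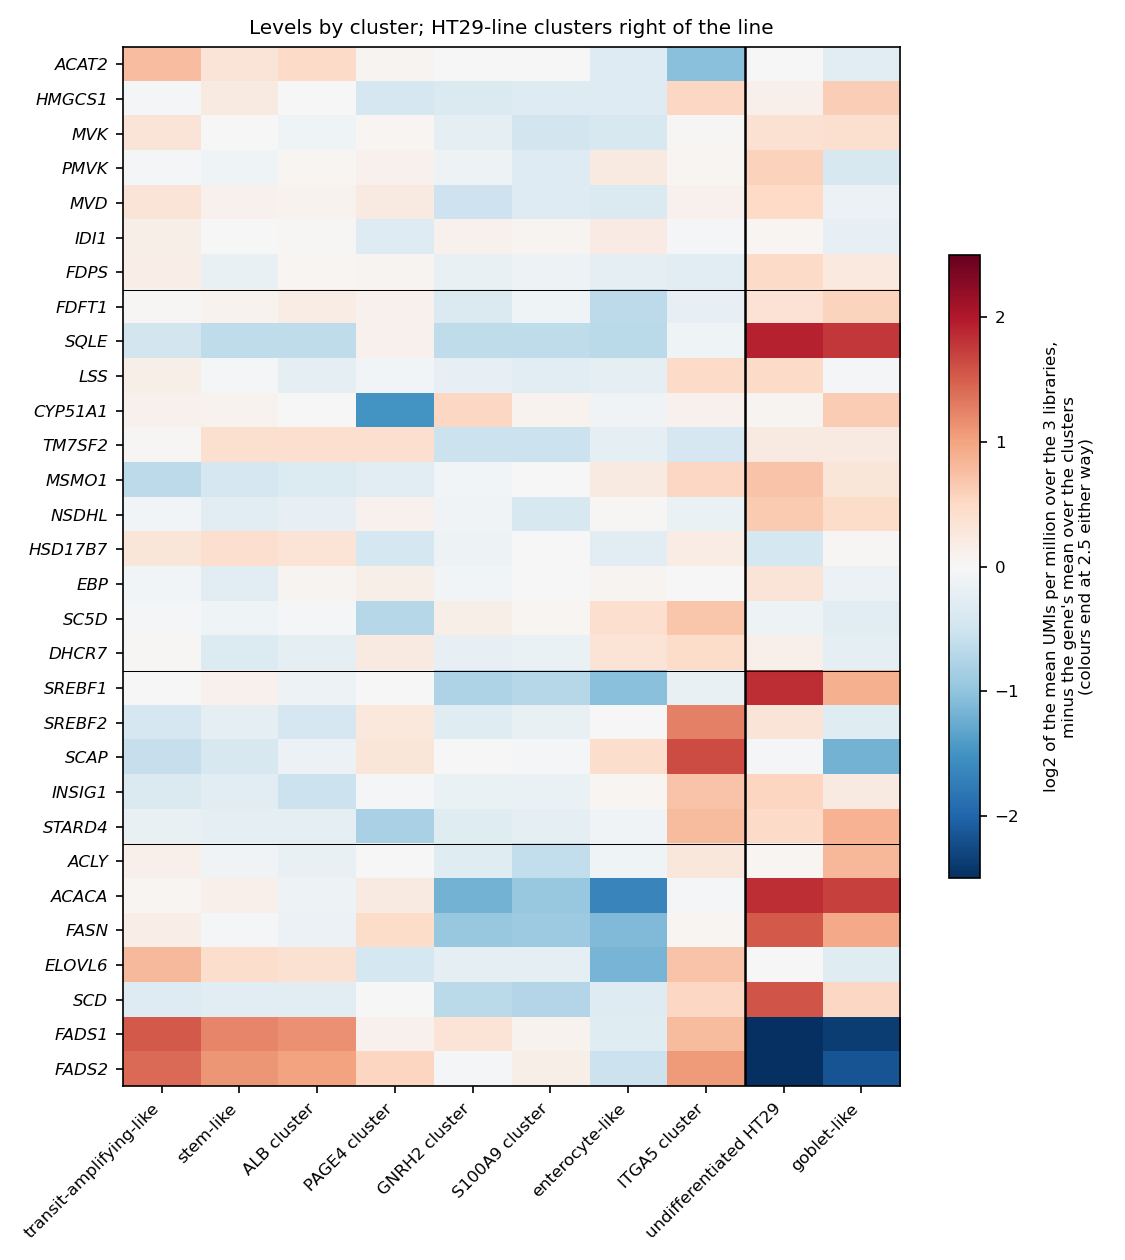
Colour gives log2 of the mean CPM over the 3 libraries minus the gene's mean over the 10 clusters of at least 250 cells, red above and blue below, with the HT29-line clusters right of the black line. SQLE, SREBF1, ACACA, FASN and SCD are red in the undifferentiated HT29 cluster, FADS1 and FADS2 are dark blue in both HT29-line clusters, and SREBF2 and SCAP are red in the ITGA5 cluster.

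FADS1 and FADS2 were not even within the Caco-2 line. FADS1 averaged 262 CPM in transit-amplifying-like cells, 211 CPM in stem-like cells and 199 CPM in the cluster led by ALB and AFP, against 73.3 CPM in enterocyte-like cells. FADS2 was highest by far in the small cluster of fetal-gene-expressing cells (70 cells, 8 of them in the LPS library), at 271, 226 and 133 CPM, whereas its mean was 31.9 CPM in transit-amplifying-like cells. FADS1 in that small cluster was at 339, 328 and 213 CPM.

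Differentiation within the Caco-2 line was then tested between enterocyte-like cells (2120 cells, with APOA4 and FABP2) and transit-amplifying-like cells (1341 cells, with MKI67 at 155 ± 9.92 CPM against 23.0 ± 2.79 CPM). Of the 30 genes, 12 were higher in enterocyte-like cells and 12 were lower, against 32.8% and 32.6% of 11165 genes tested. The 12 higher ones depend on the scaling. TMM, which sets the bulk of genes level, moved the median of all genes from -0.24 to 0.02 on the log2 scale. With counts scaled to total UMIs only, 6 of the 30 genes were higher and 17 lower, against 22.6% and 43.7% of all genes tested. The 6 were MSMO1, SC5D, DHCR7, SCAP, SREBF2 and INSIG1. Median depth differed too, at 4344 and 5928 UMIs a cell, and 7 genes were higher and 11 lower after thinning to 1500 UMIs. The share of all genes called after thinning is not given here.

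Of the 7 fatty acid synthesis genes, 5 were lower in enterocyte-like cells with TMM, against 32.6% of all genes tested. ELOVL6 fell from 28.5, 33.8 and 38.2 CPM in transit-amplifying-like cells of control 1, control 2 and LPS to 4.55, 10.5 and 10.5 CPM in enterocyte-like cells (log2 -1.79 ± 0.18, adjusted p = 1.76e-19). FADS1 fell from 233, 277 and 276.5 CPM to 58.2, 75.5 and 86.3 CPM (log2 -1.61 ± 0.08, adjusted p = 5.56e-49), and FADS2 from 22.8, 33.1 and 39.8 CPM to 6.21, 7.09 and 11.7 CPM (log2 -1.69 ± 0.18, adjusted p = 2.02e-17). ACACA fell from 29.3, 35.2 and 28.9 CPM to 8.07, 9.56 and 11.3 CPM (log2 -1.47 ± 0.17, adjusted p = 7.86e-15) and FASN from 182, 171 and 182 CPM to 60.8, 72.4 and 87.1 CPM (log2 -1.06 ± 0.09, adjusted p = 2.57e-26). The clusters did not overlap in these 5 genes, which were picked because they passed. The share of all genes without overlap was not counted, so the lack of overlap adds nothing to the test of these 5 genes. SCD did not follow them, with means of 887 ± 292 CPM in enterocyte-like and 892.5 ± 150 CPM in transit-amplifying-like cells; its fitted log2 difference was 0.20 with TMM and -0.05 with total UMIs. ACLY did not pass with TMM.

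The sterol genes went in both directions. ACAT2 was lower in enterocyte-like cells, at 136, 171 and 141 CPM against 331, 337 and 287 CPM (log2 -0.85 ± 0.08, adjusted p = 5.61e-22). MVK and MVD were lower at log2 -0.49 and -0.44 (adjusted p = 9.91e-04 and 5.41e-07), FDFT1 1.36-fold lower (adjusted p = 5.99e-07) and HSD17B7 1.28-fold lower (adjusted p = 6.09e-04). FDPS was only just past the threshold (log2 -0.16 ± 0.08, adjusted p = 0.0452). PMVK and IDI1 were higher with TMM (log2 0.50 and 0.31) and did not pass with total UMIs. MSMO1, the C4-methyl sterol oxidase, was higher, at 227, 300 and 344 CPM against 145.5, 161 and 169 CPM (log2 1.10 ± 0.08, adjusted p = 3.82e-32), with no overlap. SC5D, the sterol C5-desaturase, was 1.60-fold higher (adjusted p = 4.95e-15) and DHCR7, the last enzyme of the Kandutsch-Russell route, 1.46-fold higher (adjusted p = 7.28e-11), the latter with 225 CPM in enterocyte-like cells of control 1 below the 230 and 231.5 CPM of transit-amplifying-like cells of control 2 and LPS. NSDHL and EBP were higher with TMM (log2 0.34 and 0.38) and were not among the 6 higher genes with total UMIs. SQLE, LSS, CYP51A1, TM7SF2 and HMGCS1 did not pass with TMM. In CPM, which is scaled to total UMIs, SQLE, LSS, TM7SF2 and HMGCS1 were lower in enterocyte-like cells of each library, and CYP51A1 had no one direction. LSS was at 42.9, 37.0 and 49.0 CPM against 55.4, 52.4 and 61.5 CPM.

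The regulators split as well. SREBF1 was lower in enterocyte-like cells, at 15.9, 17.3 and 21.4 CPM against 31.3, 32.8 and 49.8 CPM (log2 -0.78 ± 0.14, adjusted p = 2.08e-07). SCAP was higher, at 31.7, 28.7 and 37.7 CPM against 16.4, 15.2 and 16.9 CPM (log2 1.26 ± 0.15, adjusted p = 1.29e-14). SREBF2 was 1.60-fold higher (adjusted p = 7.25e-09) and INSIG1 1.53-fold higher (adjusted p = 5.62e-13), although in control 1 INSIG1 was at 220 CPM in enterocyte-like and 228 CPM in transit-amplifying-like cells. STARD4 was higher with TMM (log2 0.35 ± 0.10, adjusted p = 0.00172) and was not among the genes higher with total UMIs. Transcript levels of SREBF1 and SREBF2 do not show how much of either protein was cleaved.

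Co-variation of the genes across single cells was described next. Each gene was set against the summed other genes of its arm in cells thinned to 1500 UMIs, within 1 line of 1 library (675 to 3955 cells), and the Pearson r is given as a description. SQLE had r of 0.36, 0.44 and 0.37 in HT29-line cells of control 1, control 2 and LPS and 0.095, 0.12 and 0.11 in Caco-2-line cells. MSMO1 was at 0.35, 0.36 and 0.29 against 0.15, 0.18 and 0.17, EBP at 0.32, 0.29 and 0.21 against 0.081, 0.076 and 0.12, and IDI1 at 0.26, 0.33 and 0.28 against 0.14, 0.16 and 0.19. SCD and FASN ranged up to 0.44 in HT29-line cells and up to 0.25 in Caco-2-line cells. SCD averaged 3148 of the 3838 CPM of the fatty acid arm in HT29-line cells, so there the sum mostly stands for SCD. FASN had r of 0.39, 0.31 and 0.40 with the sum and 0.39, 0.30 and 0.39 with SCD alone in HT29-line cells. Not all genes had the higher r in HT29-line cells. FADS1 and FADS2 had r of 0.12 to 0.13 and 0.048 to 0.096 in Caco-2-line and -0.056 to 0.042 and -0.037 to 0.042 in HT29-line cells. HSD17B7 was at 0.030, 0.034 and 0.015 in HT29-line and 0.069, 0.061 and 0.063 in Caco-2-line cells, and ELOVL6 at 0.022, 0.061 and 0.090 against 0.091, 0.089 and 0.077. Over the 7 fatty acid genes the median r was 0.098 in HT29-line and 0.116 in Caco-2-line cells. The other arms had the higher median in HT29-line cells. It was 0.234 against 0.1465 in the mevalonate arm and 0.139 against 0.088 from squalene to cholesterol. For regulation and transport it was 0.059 against 0.055. TM7SF2, PMVK, SCAP and SREBF1 stayed near 0 in Caco-2-line cells. They were low in HT29-line cells too, from -0.013 (TM7SF2, control 2) to 0.127 (SREBF1, control 2). A correlation of sparse counts grows with the level of the gene, and several of these genes were more abundant in HT29-line cells, so the lines are not compared on an equal footing.

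**Figure D4:**
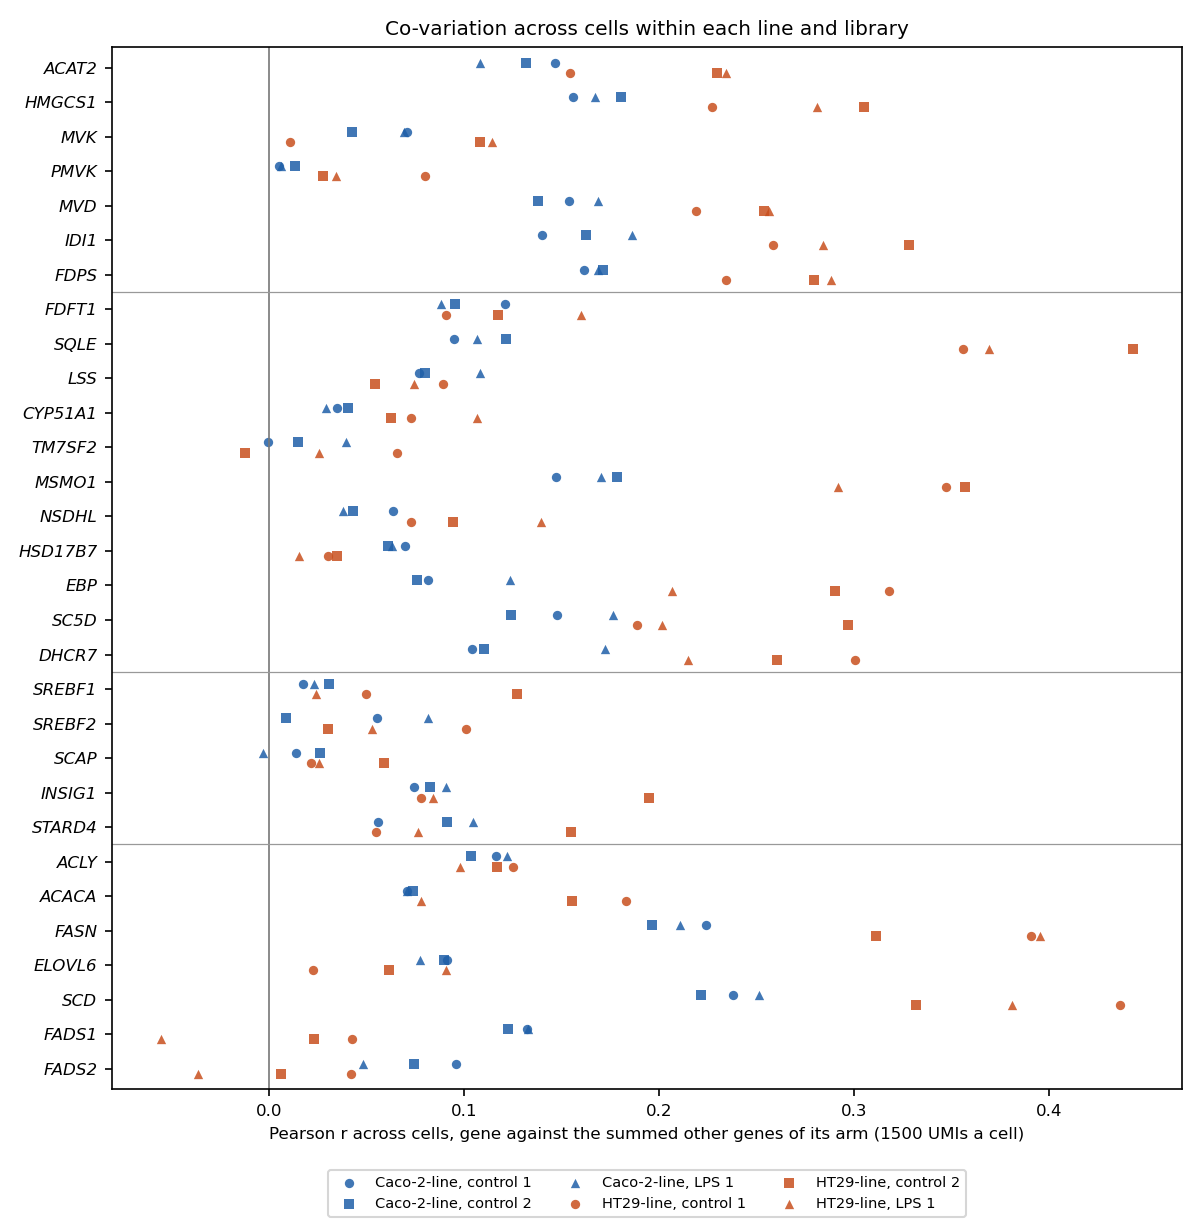
Pearson r across cells between each gene and the summed other genes of its arm, in cells thinned to 1500 UMIs, by line (blue, Caco-2-line; orange, HT29-line) and library (circle, control 1; square, control 2; triangle, LPS). SQLE, MSMO1, EBP, FASN and SCD reach 0.21 to 0.44 in HT29-line cells, and FADS1 and FADS2 lie near 0 there.

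No gene of the set passed the test between the LPS library and the controls. In Caco-2-line cells 0 of 30 were called, against 0.135% of 15537 genes (21 genes), and in HT29-line cells 0 of 30, against 0.172% of 12199 genes (21 genes). DESeq2 also called 0 of 30 in either line. With 1 LPS library the test has 1 residual degree of freedom and takes the LPS insert to vary as the 2 controls did, so its power was low.

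SCD and HMGCS1 had the largest fitted log2 differences of the set in Caco-2-line cells, 0.41 and 0.36, and were picked by size. SCD was at 676 and 867 CPM in the controls and 1078 CPM after LPS in these cells. HMGCS1 was at 267 and 367 CPM in the controls and 429 CPM after LPS. LPS lay above both controls for 21 of the 30 genes in Caco-2-line cells, against 48.4% of all genes, and below both for 6, against 24.8%. In HT29-line cells it lay above both for 9 (39.7% of all genes) and below both for 3 (24.0%), and most of the set lay between the controls. The median log2 difference over the set was 0.14 in Caco-2-line and -0.03 in HT29-line cells, with 0.01 and -0.01 over all genes. Without control 1 the set's medians were 0.03 and -0.11. Counts of the ITGA5 cluster, which had high SREBF2 and INSIG1, were 184, 190 and 265 cells in control 1, control 2 and LPS, and without that cluster the Caco-2-line median was 0.16. The LPS library was the shallowest and had the highest mitochondrial share, and the part of either in these values was not tested. The difference between the lines in their LPS effect was called for 0 of 30 genes and for 10 of 15066 genes, with the smallest unadjusted p of the set at 0.0346 for INSIG1.

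**Figure D5:**
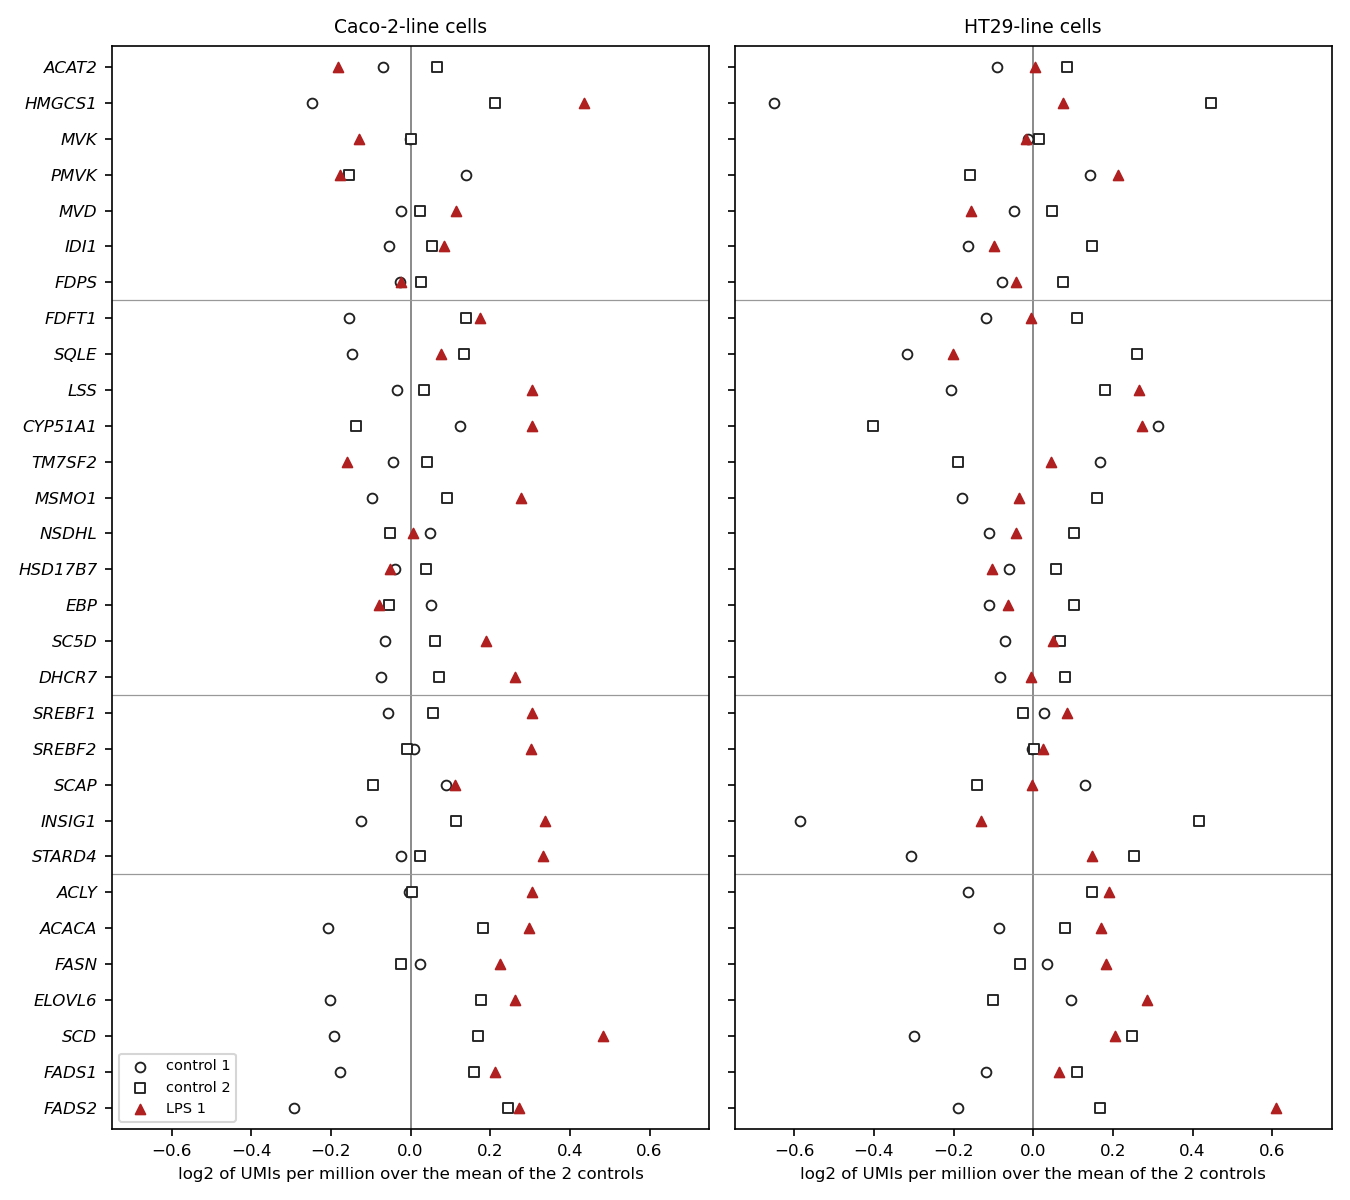
Log2 of each library's CPM over the mean of the 2 controls, for Caco-2-line cells (left) and HT29-line cells (right); open circles and squares are control 1 and control 2 and red triangles the LPS library. Most triangles lie right of both controls on the left panel, and on the right panel most lie between the controls, which are widest apart for HMGCS1 and INSIG1.

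The wider list of 46 lipid genes was counted beside the set, 44 of which could be tested between the lines. Of these, 19 were higher in HT29-line cells and 14 lower, against the 35.0% and 37.6% of all genes. The largest were ABCG1, a sterol exporter, at 72.9, 84.0 and 79.5 CPM in HT29-line and 5.37, 6.57 and 6.25 CPM in Caco-2-line cells (12.6-fold higher, adjusted p = 3.14e-18), and ELOVL5 (11.5-fold lower). SOAT2, which esterifies cholesterol in intestine and liver, was at 17.8, 16.9 and 18.4 CPM in Caco-2-line and 0.911, 1.36 and 2.77 CPM in HT29-line cells (log2 -3.49 ± 0.25, adjusted p = 1.56e-11) and so at 5.13%, 8.04% and 15.03% of its Caco-2-line level. Other large differences went in both directions. ACSL1, an acyl-CoA ligase, was 5.23-fold and the elongase ELOVL1 3.56-fold higher in HT29-line cells. GPAM (the first acylation of glycerol phosphate) was 4.25-fold, MLXIPL (the sugar-responsive factor ChREBP) 3.95-fold, STARD5 3.52-fold and SOAT1 3.41-fold lower. STARD5 was very low in both lines, at 0.228, 0.906 and 0.831 CPM in HT29-line cells of control 1, control 2 and LPS. Those levels were 11.6%, 34.7% and 40.7% of its Caco-2-line level, so its fold change (log2 -1.82 ± 0.46) is poorly determined.

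Between enterocyte-like and transit-amplifying-like cells 43 genes of the wider list could be tested, of which 23 were higher and 7 lower with TMM, against 32.8% and 32.6% of all genes. With counts scaled to total UMIs, 19 were higher and 11 lower, against 22.6% and 43.7%. ACSL5 was 7.49-fold, CPT1A 4.73-fold, SOAT2 4.26-fold, ACSL1 3.75-fold, AGPAT2 3.27-fold and DGAT1 2.70-fold higher in enterocyte-like cells (adjusted p from 1.02e-56 to 1.65e-15 for those besides ACSL5, whose adjusted p was 9.79e-61). INSIG2, the second anchor of SCAP, was 5.27-fold higher (adjusted p = 3.19e-62), the nuclear receptor PPARA 3.13-fold and MLXIPL 2.72-fold higher. On the lower side was FADS3 (3.04-fold). SOAT1, named after its value was seen, was 2.49-fold lower. SOAT1 and SOAT2 therefore went in opposite directions between these clusters, and both were lower in HT29-line cells. In the LPS comparison 0 of 45 genes of the list passed in Caco-2-line and 0 of 43 in HT29-line cells.

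Genes outside both lists were ranked by how closely they followed the summed squalene-to-cholesterol arm over the 10 clusters in 3 libraries (30 points, 8157 genes with a mean of at least 10 CPM). The closest were TMEM65 (Pearson r of 0.95 on log2 values), BAIAP2L1 (0.93), TSPAN3 (0.93), HLA-E (0.92), YWHAZ (0.92), IRF3 (0.92), NEAT1 (0.91), GFPT1 (0.91), DNAJC3 (0.91) and VEGFA (0.91). With SQLE left out of the sum, the r of these 10 genes fell to between 0.66 and 0.80, so the ranking leaned on the SQLE difference between the lines.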

How the data were processed

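Each library of the Caco-2/HT29 co-culture was made with a 10x Genomics 3′ kit from cells that had been frozen and thawed. The deposited values are raw UMI counts per gene and cell from Cell Ranger (version 3.1.0 in the matrix headers, while the study's methods name a later one), unnormalized, on human gene identifiers; the exact annotation was not given in the sources used here. The 30 genes, the wider list and the tests were chosen with earlier results of these data known.

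Cells were kept at no more than 20% mitochondrial UMIs and above minimum numbers of UMIs and genes that the study gives for the controls, higher for control 1 than for control 2; those of control 2 were applied to LPS. The automatic Scrublet threshold marked 0, 0 and 1 cells, so the 6% of cells with the highest doublet scores were removed (296, 318 and 310). Counts were normalized with sctransform 0.4.2, with mitochondrial share and cell-cycle difference regressed out, and integrated with Seurat 5.3.0, the 30 genes and the wider list left out, and clustered by Leiden (scanpy 1.11.5, leidenalg 0.10.2, 15 neighbours, 50 components, resolution 0.5). A cluster was named only with at least 2 of a type's markers among its 10 most raised genes, and given a line where at least 80% of its cells lay on 1 side of the line score; 1 cluster of 71 cells had no line.

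Counts were summed per library and line or cluster and tested with edgeR 4.0.16 (quasi-likelihood, TMM, filterByExpr), adjusted by Benjamini-Hochberg over all genes tested with a threshold of 0.05. Line and cluster comparisons were within libraries, with the library as a block, since cells of both lines came from the same insert. Each of these fits had 6 sums and 2 residual degrees of freedom, and the test shares variance information across genes. Very small p values therefore do not stand for more replication than 3 inserts. DESeq2 1.42.0, other scalings, filters and cell sets were alternatives. The fits were also run on simulated counts with known changes. In those counts far fewer genes changed than were called between the lines, and as many rose as fell. That run therefore does not check how the scaling behaves in the line and cluster comparisons. Genes were named by role for all 30 members, with fold changes printed for those past the threshold, and at most 10 by size for the wider list. 1 gene of that list is not reported here. Annotation came from GENCODE 44.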

Additional observations from a re-analysis of the deposited data

Results flagged for a closer look

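PMVK and MVD, both mevalonate enzymes, had an LPS level outside that of both controls in opposite directions in the 2 lines. PMVK was at 29.8 and 24.3 CPM in the controls and 23.9 CPM after LPS in Caco-2-line cells, and at 39.9, 32.4 and 41.8 CPM in HT29-line cells. The log2 difference between the LPS effects, HT29-line minus Caco-2-line, was 0.41 (unadjusted p = 0.125, adjusted p = 1.00, edgeR). MVD was at 136 and 141 CPM in the controls and 150 CPM after LPS in Caco-2-line cells, and at 201, 215 and 187 CPM in HT29-line cells, with a log2 difference of -0.25 (unadjusted p = 0.202, adjusted p = 1.00). Neither difference passed the test, and each rests on 1 LPS library.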

How the results depend on the processing

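Of the line difference, 18 genes higher and 5 lower, every alternative gave 14 to 19 higher and 4 to 7 lower. The share of all genes called is not given for each alternative. The counts therefore show only how steady the calls for the set were. With the undifferentiated HT29 cluster set against the enterocyte-like cluster alone, chosen after seeing the data, ACAT2 (0.05), EBP (-0.01) and ACLY (-0.08) changed sign on the log2 scale, 14 genes were higher and 7 lower, and FADS1 stood at -2.53. With a Caco-2-line background, scaled by the 5 enterocyte genes, subtracted from HT29-line cells, 18 genes were higher and 5 lower. That alternative was also chosen after seeing the data. Whether the background was free RNA or Caco-2-line cells within HT29-line clusters was not tested. Without each library in turn, 18 to 19 genes were higher and 4 to 6 lower. Without the replicate block, 17 were higher and 4 lower.

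Of the enterocyte-like minus transit-amplifying-like comparison, 12 genes were higher and 12 lower. After thinning to 1500 UMIs 7 were higher. Scaled to total UMIs only, an alternative added after seeing the data, 6 were higher (22.6% of all genes) and SCD changed sign (-0.05). Without doublet removal FDPS changed sign (0.07), there with a transit-amplifying-like cluster of 3082 cells. Leaving out each library gave 11 to 12 higher and 10 to 11 lower, DESeq2 8 and 9, and no replicate block 11 and 11. For these alternatives and for thinning the share of all genes called is not given. With log normalization without integration, and with the higher UMI minimum in every library, no transit-amplifying-like cluster met the naming rule, so there is no value.

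The LPS comparisons called 0 genes of the set under each alternative with a test. Without control 1 or control 2 the fit leaves no residual degrees of freedom, and the median log2 difference over the set, a value with no test, was 0.03 and 0.15 in Caco-2-line cells and -0.11 and 0.02 in HT29-line cells. No paired analysis was possible because the LPS group and the controls share only 1 replicate number. HT29-line cells gave 675 to 1015 cells a library, which limits values for low genes such as FADS2, CYP51A1 and ELOVL6.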
